A study of Homo sapiens with 2 samples.

Results

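A stretch of neighbouring genes on chromosome 1, running from AK5 to ARHGAP29, was examined in a lung cancer line made resistant to gefitinib and in its parental line. The members were the rows of the deposited table whose Ensembl identifiers lie in that stretch by GENCODE 29, which gave 83 genes. BRDT, CYR61, TGFBR3, ABCA4, ARHGAP29, IFI44, IFI44L and GBP1 were left out by the rule, so 75 of the 20985 genes in the table remained. The stretch was chosen by the log2 ratios of these same 2 libraries, in which many of its genes stood higher in the resistant line. Its ratios are therefore given as a description, with no test, and support nothing.

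The resistant group was HCC827 ZDR3, derived from HCC827 cells kept in gefitinib, an inhibitor of the EGFR tyrosine kinase, that began at 10 nM and was raised 3-fold each month to 1 µM, after which 3 colonies were taken. The parental group was HCC827, an established lung adenocarcinoma line with an activating EGFR mutation. Each group held 1 library of polyadenylated RNA, with 243549866 gene reads for the resistant and 257192597 for the parental line. No difference thus has a replicate check and no p-value is given. Whether the cells were harvested in gefitinib, or whether ZDR3 is 1 of those colonies, is not said in the labels. The growth protocol, shared by both samples, describes a medium for isotope labelling of proteins. Levels are normalised reads that were not divided by gene length, and a level of 1 equals 138 resistant or 143 parental reads. Log2 ratios compare resistant with parental levels, each raised by 1 beforehand, and a gene is called expressed where either library reaches a level of 1. "Higher" and "lower" below describe these 2 libraries. Plain ratios carry exact 95% Clopper-Pearson intervals that reflect counting error alone, since amplified reads need not be separate molecules. More RNA per cell and more cells that express a gene cannot be told apart in bulk RNA. Of 9 markers of lung adenocarcinoma epithelium 9 were expressed in these libraries, with summed levels of 12807 in the resistant and 20889 in the parental line. EGFR gave 7182 and 6662 of these sums, while CDH1 (log2 ratio -3.11), EPCAM (-3.06), and NKX2-1 (-3.22) were lower in the resistant line, as was NAPSA, with levels of 6.11 in the resistant and 27.5 in the parental library. The remaining markers of that list were lower too, with log2 ratios from -1.74 to -0.39. Of 5 leukocyte markers 1 reached the minimum, with summed levels of 0.574 in the resistant and 2.14 in the parental library. Of 5 fibroblast markers 1 did, with sums of 1.90 and 9.53, and of 4 measured endothelial markers 0 did, with sums of 0.0945 and 0.553. Of the defining markers, CD3E had 0 reads in both libraries. TEK had 0 in the resistant and 13 in the parental one, and PTPRC had 32 in the resistant and 0 in the parental one. The part of other cell types in the results below was not tested.

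The stretch is not 1 pathway. It holds tandem families that arose by gene duplication, among them the guanylate-binding proteins (large GTPases induced by interferon that attack the membranes of pathogens), the LRRC8 subunits of the volume-regulated anion channel, the mucolipin channels MCOLN2 and MCOLN3 and the CLCA secreted proteins of mucous epithelia. Between these families lie unrelated genes for receptors, kinases, transcription factors, ribosome factors and enzymes.

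Of the 75 members 61 were expressed. Among these, 26 were at least 2-fold higher in the resistant library, against a background of 10.6% of all 13777 expressed genes. At least 2-fold lower were 2, against a background of 9.68%, and 43 had a log2 ratio above 0, against 47.8%. The median log2 ratio of the expressed members was 0.75 and that of all expressed genes -0.03. The rule used this contrast, so nothing is read from these counts. The same 10.6% and 9.68% are the background for the counts of each role and partner list below. Nothing is read from the role lists either, since their genes are all members.

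The 75 rows did not move as 1 block. From AK5 to CLCA4, 26 members were expressed, with a median log2 ratio of -0.04, or 0.022 when each library was divided by its upper quartile. In that stretch 8 were at least 2-fold higher, 1 was lower and 12 had a ratio above 0. From SH3GLB1 to GCLM, 35 were expressed, with a median of 1.01, and 18 were at least 2-fold higher, 1 was lower and 31 had a ratio above 0. The middle 50% of log2 ratios spanned 0.65 there, from 0.58 to 1.23, against 1.95 from AK5 to CLCA4 and 0.83 over all expressed genes. The dividing point was placed after the values were seen. A least-squares break with ratios held to within 2 of 0 fell later, between LRRC8B and LRRC8C (medians 0.09 before and 1.04 after), and without that limit it fell between TTLL7 and PRKACB, with the higher median before it (1.47) and the lower after (0.75). The rows before SH3GLB1 held both the highest log2 ratios of the members and most of those below 0. Their high genes partly lay side by side, as PTGFR, LPHN2 and TTLL7 did among the expressed members, and LPAR3, MCOLN2 and MCOLN3.

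**Figure D1:**
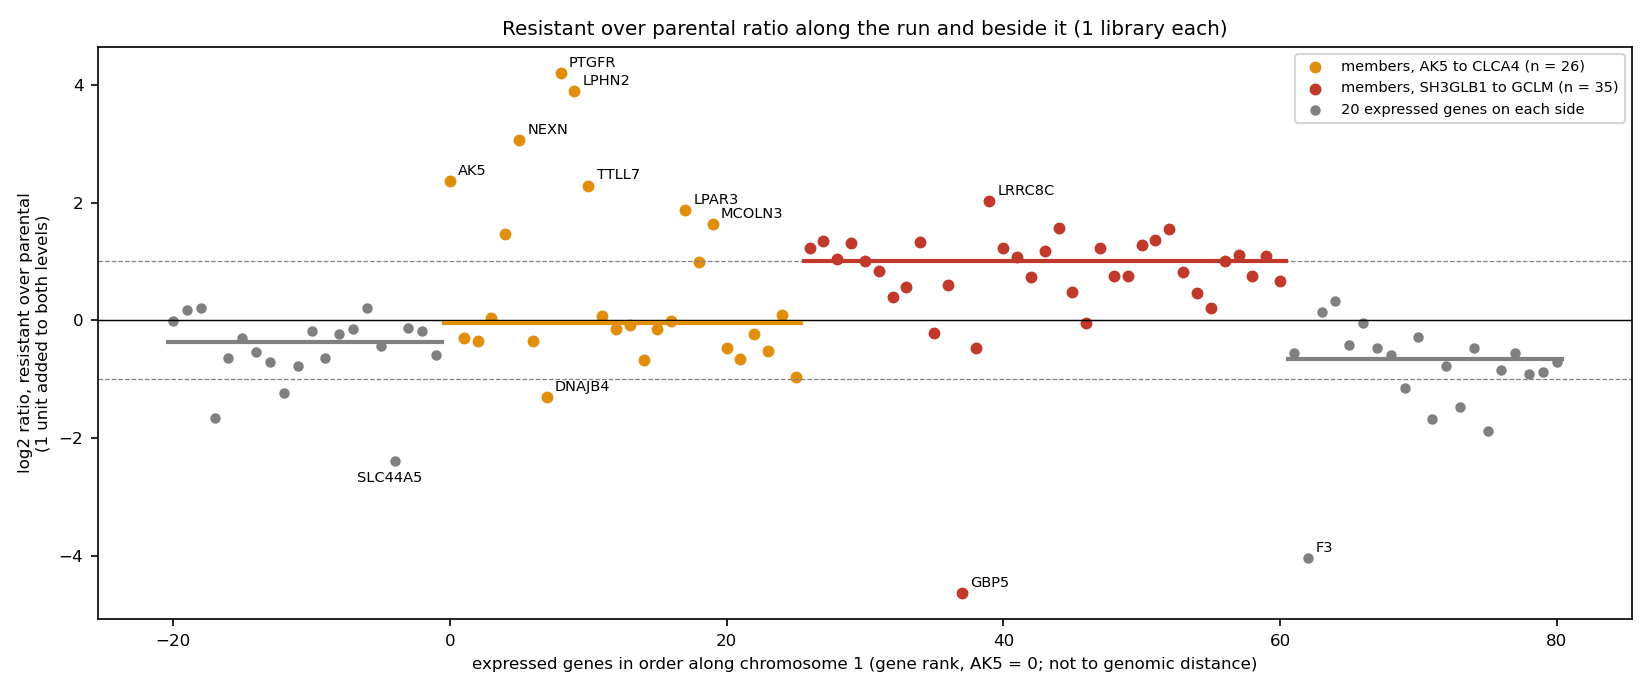
Log2 ratio of resistant over parental (y axis, 1 unit added to both levels) for expressed genes in their order along chromosome 1 (x axis, gene rank, not distance), with 26 members from AK5 to CLCA4 in orange, 35 from SH3GLB1 to GCLM in red and 20 expressed genes on each side in grey. Horizontal bars are medians (-0.04, 1.01, and -0.36 and -0.66 for the neighbours), and dashed lines mark 2-fold.

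The genes on both sides stood lower. The ends of the stretch were drawn from these same ratios, so this difference can follow from the choice and nothing is read from it. The 20 expressed genes before AK5 had a median log2 ratio of -0.36, with 0 at least 2-fold higher and 3 lower, and the 20 after ARHGAP29 had a median of -0.66, with 0 higher and 5 lower. The highest of these 40 neighbours was CNN3, an actin-binding calponin, at 0.33. Just outside the stretch, PIGK, a subunit of the enzyme that attaches GPI anchors, was at 65.7 in the resistant and 99.5 in the parental library (-0.59), and just inside it AK5, an adenylate kinase of the brain, was at 4.23 and 0.0140 (2.37) while ZZZ3, a histone-binding subunit of the ATAC acetyltransferase complex, was at 74.3 and 91.8 (-0.30). At the far end the last member, GCLM, had a log2 ratio of 0.66. The first expressed gene beyond ARHGAP29 was ABCD3, a peroxisomal transporter, at 137 in the resistant and 202 in the parental library (-0.56), and the next was F3, the tissue factor that starts coagulation, at 10.7 and 192 (-4.05). For scale, the stretch of chromosome 1 from RNF11 to CYP2J2 had a median of 1.62 over 55 expressed genes, and the stretch from NFIA to PIGK, which ends beside AK5, one of -0.43 over 43. Both of these stretches were also picked with these ratios known, and the 20 expressed genes before AK5 lie within the latter.

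Promoter sequences are shown for 4 members, all at least 2-fold higher in the resistant line. NEXN and PTGFR were far higher, SH3GLB1 is the first gene of the later rows, and GBP3 had the highest ratio of the guanylate-binding members. These sequences stand for no member that was lower or under 2-fold. They come from RefSeq (GRCh38.p14) and hold 250 bases before to 50 after the gene's start, 5′ to 3′ on the gene's strand. NEXN lies at chr1:77888374-77888673 and PTGFR at chr1:78490724-78491023, both on the plus strand. SH3GLB1 lies at chr1:86704326-86704625 on the plus strand and GBP3 at chr1:89022817-89023116 on the minus strand. Capitals mark matches, on both strands, to the AP-1 motif TGANTCA, the CRE TGACGTCA, the CCAAT box, the TATA box TATAAA and the GC box GGGCGG.
NEXN: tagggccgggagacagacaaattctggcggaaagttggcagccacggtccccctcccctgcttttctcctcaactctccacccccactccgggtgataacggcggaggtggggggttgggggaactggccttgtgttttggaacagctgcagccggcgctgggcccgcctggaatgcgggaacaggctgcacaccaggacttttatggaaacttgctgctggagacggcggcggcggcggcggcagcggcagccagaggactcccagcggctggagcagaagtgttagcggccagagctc
PTGFR: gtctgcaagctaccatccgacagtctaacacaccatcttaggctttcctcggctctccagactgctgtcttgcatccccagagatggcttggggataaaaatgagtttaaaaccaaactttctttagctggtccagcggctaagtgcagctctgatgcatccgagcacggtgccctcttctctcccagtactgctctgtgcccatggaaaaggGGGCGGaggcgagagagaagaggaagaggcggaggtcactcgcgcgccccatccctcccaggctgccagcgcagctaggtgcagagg
SH3GLB1: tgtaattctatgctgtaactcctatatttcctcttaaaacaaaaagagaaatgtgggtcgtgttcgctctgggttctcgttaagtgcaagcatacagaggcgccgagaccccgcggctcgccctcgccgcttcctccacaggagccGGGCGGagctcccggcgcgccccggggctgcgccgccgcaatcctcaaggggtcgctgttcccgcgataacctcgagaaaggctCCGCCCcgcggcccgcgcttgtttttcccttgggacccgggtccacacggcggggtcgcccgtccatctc
GBP3: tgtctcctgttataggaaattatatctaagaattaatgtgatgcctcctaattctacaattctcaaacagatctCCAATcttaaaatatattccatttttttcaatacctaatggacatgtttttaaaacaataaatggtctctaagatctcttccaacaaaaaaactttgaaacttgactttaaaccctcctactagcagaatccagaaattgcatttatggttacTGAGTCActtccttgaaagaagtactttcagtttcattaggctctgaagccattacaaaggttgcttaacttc
The NEXN window held none of these motifs, the PTGFR window 1 GC box, SH3GLB1 2 GC boxes, and GBP3 1 CCAAT box and 1 AP-1 match.

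Such windows were at hand for 66 of the 75 members, and not for FUBP1, TTLL7-IT1, MCOLN2, WDR63, GBP2, GBP5, C1orf146, RPL5 and FAM69A. For 20 of the 66 several starts are listed and the first was used. The AP-1 letters, the site bound by JUN and FOS proteins, were found in 4 of 55 expressed members (GNG5, GBP3, LRRC8B and EVI5), or 7.27%, against 4.63% of 10657 expressed genes in the table. GC boxes stood in 69.1% of the expressed members and 68.9% of all expressed genes, CCAAT boxes in 29.1% and 36.6%, TATA boxes in 10.9% and 5.90%, and the CRE in 0 of the members and 3.16% of the genes. The median number of CpG dinucleotides was 28 in the expressed members and 26 in all expressed genes. In the 11 members below the minimum it was 4, against 6 in all genes below the minimum. A match is a string of letters and not a shown binding site.

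With 1 unit added, the 2 highest log2 ratios among the 75 members were those of receptors. Of 9 expressed members of this list 6 were at least 2-fold higher and 0 lower, with a median log2 ratio of 1.64. PTGFR, the receptor of prostaglandin F2 alpha, was at 30.7 in the resistant and 0.721 in the parental library (4.20), a plain ratio of 42.5 with an interval of 35.0 to 52.2. Its log2 ratio was matched or exceeded by 71 of the 13777 expressed genes, itself included. LPHN2, the adhesion receptor latrophilin 2 (now ADGRL2), was at 119 and 7.09 (3.89). LPAR3, a receptor of lysophosphatidic acid, was at 3.87 and 0.336 (1.86). All these receptors were scarce in the parental line and measured on 48 to 1013 parental reads.

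The mucolipins are cation channels of endosomes and lysosomes. MCOLN3 was at 13.0 in the resistant and 3.49 in the parental library (1.64), and MCOLN2 was at 6.55 and 2.83 (0.98), just under 2-fold here, just past it under each of 3 other scalings, and 2.32 as a plain ratio. The remaining mucolipin, MCOLN1, lies outside the stretch and was at 32.5 and 11.6 (1.41). Among other receptors of the same ligand families, LPAR1 was higher (1.71) and LPAR5 lower (-1.56), and of 11 listed lipid receptors outside the stretch 5 were expressed, with 1 higher, 1 lower and a median of -0.13. The paralogue LPHN3 was at 8.89 and 0.252 (2.98), while LPHN1 was at 46.3 and 50.6 (-0.13).

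The LRRC8 subunits split. These proteins join the essential subunit LRRC8A in the channel that lets swollen cells lose chloride and small osmolytes, and the partner present sets what the channel conducts. LRRC8C was at 23.6 in the resistant and 5.05 in the parental library (2.03) and LRRC8D at 177 and 74.9 (1.23), whereas LRRC8B, their direct neighbour, was at 91.6 and 127 (-0.46). Outside the stretch LRRC8A was at 76.8 and 176 (-1.19) and LRRC8E at 50.2 and 9.79 (2.25). Of the 2 subunits outside the stretch, then, 1 was at least 2-fold higher and 1, the subunit that all channels need, was lower. The subunits within it were chosen by these same ratios, so they are not counted with those 2. GNG5, a G protein gamma subunit and the last expressed member of this list, was at 67.7 and 109 (-0.68).

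The 6 guanylate-binding members differed from each other more than the genes of any other role list. GBP3 was at 397 in the resistant and 158 in the parental library (1.32), and GBP2 at 135 and 158 (-0.22). GBP7 was at 2.04 and 1.00 (0.60). GBP5, which helps to assemble the NLRP3 inflammasome, was at 0.596 and 38.7 (-4.64), the lowest log2 ratio of all members. As a plain ratio of parental over resistant that was 65.0, with an interval of 52.3 to 81.9. GBP4 and GBP6 stayed below the minimum with 7 to 57 reads. These genes are alike in sequence and can share reads, and GBP2 and GBP7 also overlap in exons. In the 14 expressed interferon-gamma genes outside the stretch the median was -0.36, with 1 higher and 3 lower at least 2-fold. These were 7.14% and 21.4% of that list, against 10.6% and 9.68% of all expressed genes. IFNGR1, a chain of the interferon-gamma receptor, was lower (-1.63), as were CIITA, the master regulator of MHC class II genes (-1.51), and the feedback inhibitor SOCS1 (-1.38). ICAM1, an adhesion molecule, was higher (1.43), and IRF1 was at 56.2 and 41.1 (0.44).

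**Figure D2:**
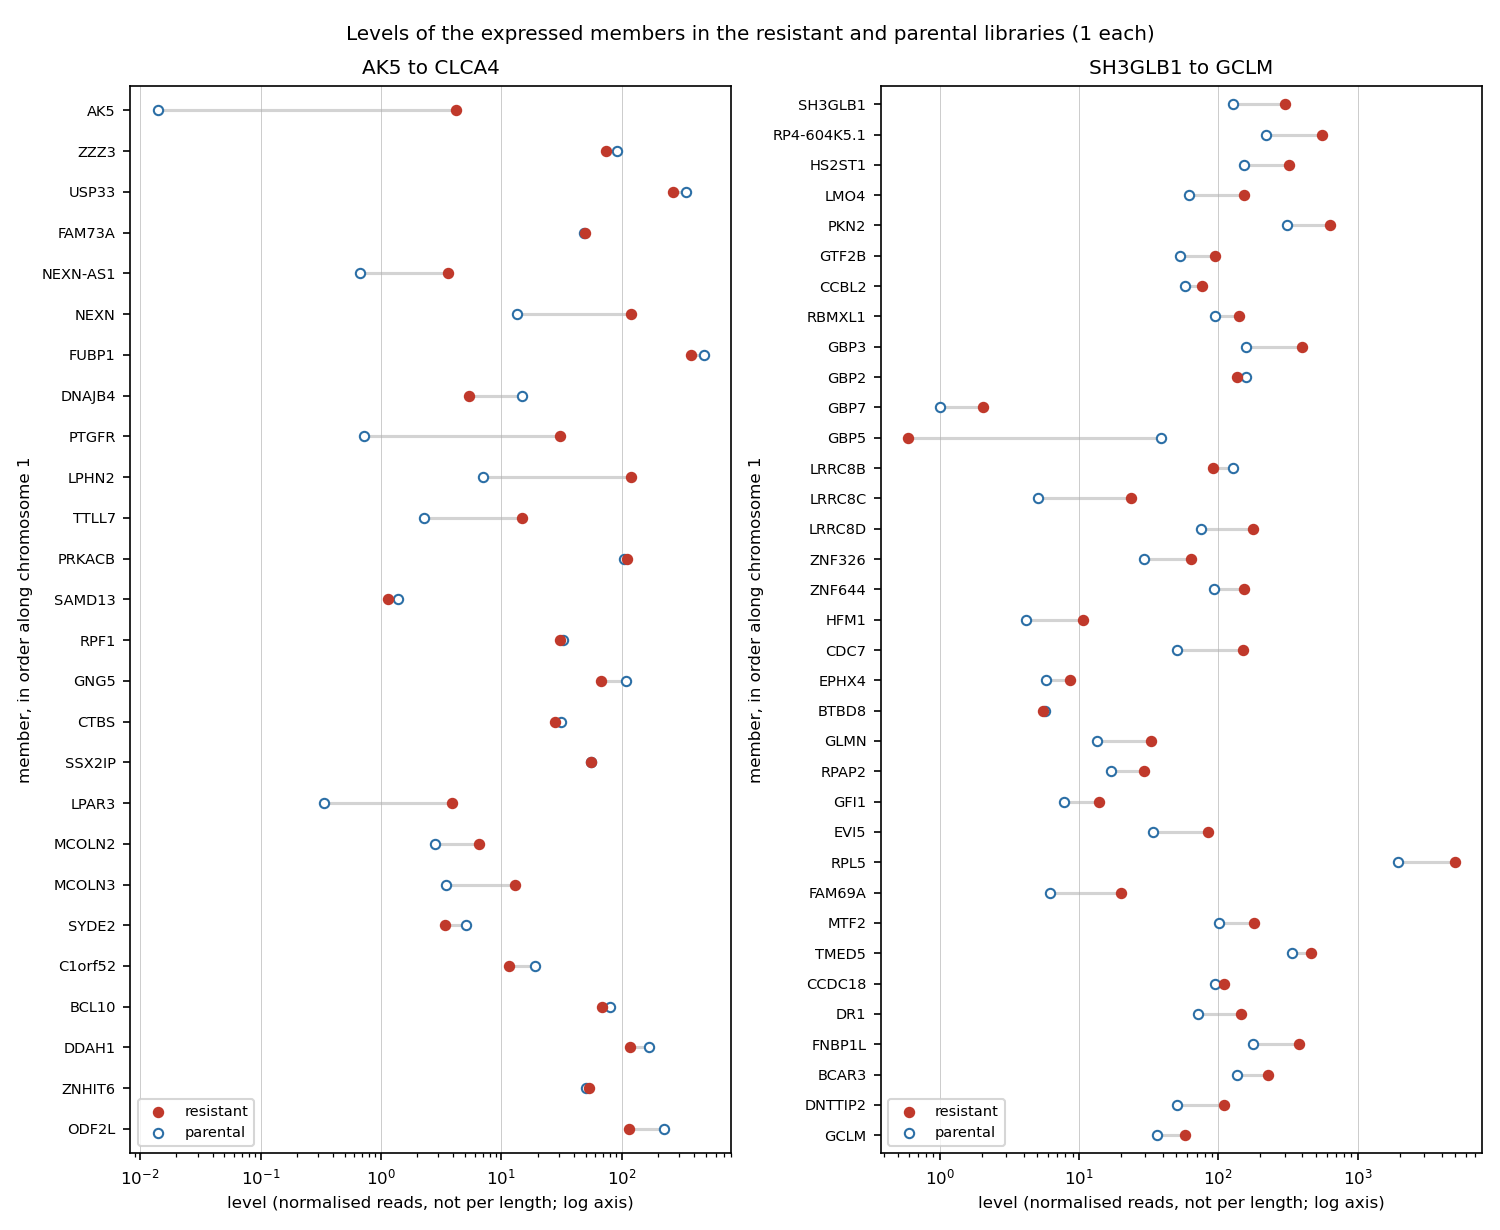
Levels of the 61 expressed members (x axis, normalised reads not corrected for length, log axis) in the resistant (filled red) and parental (open blue) library, in order along chromosome 1 from top to bottom (y axis). On the left the genes at least 2-fold higher, such as PTGFR and LPHN2, had parental levels of at most 13.5, while for other genes, such as FAM73A and SSX2IP, the 2 points nearly touch. On the right most bars have like length, and the longest, that of GBP5, runs the other way, as do GBP2, LRRC8B and BTBD8.

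Kinases and adaptors are given on either side of SH3GLB1, a dividing point placed after the values were seen, so nothing is read from that division. All 11 genes of this list were expressed, and 6 of them stood at least 2-fold higher and 0 lower, with a median of 1.01. CDC7, the kinase that fires replication origins, was at 150.5 in the resistant and 50.4 in the parental library (1.56, plain ratio 2.98, interval 2.91 to 3.07). Its activating subunits lie elsewhere and were not higher: DBF4 was at 13.4 and 19.3 (-0.50) and DBF4B at 14.1 and 23.8 (-0.72). TIMELESS, a replication fork protein, was lower (-1.10), and CLSPN was at 0.52.

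PKN2, a serine/threonine kinase, was at 631 in the resistant and 313 in the parental library (1.01), while its paralogue PKN3 had a log2 ratio of -0.90. SH3GLB1, the membrane-bending protein endophilin B1, was at 301 and 128 (1.23), and its paralogue SH3GLB2 had a log2 ratio of -0.29. EVI5, a RAB GTPase-activating protein, was at 83.7 and 33.9 (1.28), GLMN (glomulin) at 33.0 and 13.5 (1.23) and FNBP1L, an F-BAR protein of actin assembly, at 383 and 177 (1.11). BCAR3, an adaptor linked to antiestrogen resistance in breast cancer cells, was at 228 and 136 (0.74). Its binding partner BCAR1 (p130Cas) lies elsewhere and was at 989 and 369 (1.42), and the related scaffold NEDD9 was higher too (1.03). SH2D3A, a paralogue of BCAR3, was lower, at 24.7 and 82.3 (-1.69), as was TRIP10, a paralogue of FNBP1L (-1.13). Of 34 expressed genes in the list of paralogues elsewhere, 6 were at least 2-fold higher and 4 lower, with a median of -0.14. These were 17.6% and 11.8%, against 10.6% and 9.68% of all expressed genes.

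In the rows before SH3GLB1 the members of that list had log2 ratios from -0.47 to 0.07. PRKACB, a catalytic subunit of protein kinase A, was at 110.3 in the resistant and 105 in the parental library (0.07), and the NF-kB adaptor BCL10 at 67.9 and 79.7 (-0.23). USP33, a deubiquitinase, was at 266 and 338 (-0.35). Of 6 expressed protein kinase A subunits elsewhere 1 was at least 2-fold higher, the regulatory subunit PRKAR2B, at 2.36 and 0.231 (1.45). Of 7 BCL10 partners 0 passed 2-fold in either direction, with MALT1, the protease of the complex, at 0.82. SYDE2, a GTPase-activating protein, was at 3.39 and 5.07 (-0.47).

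Transcription and chromatin genes had the narrowest middle 50% of the 8 role lists plotted. Among the 10 that were expressed, 4 were at least 2-fold higher and 0 lower, with a median of 0.83 and a range from 0.73 to 1.06 for that middle part. LMO4, a LIM-only cofactor, was at 154 in the resistant and 61.7 in the parental library (1.31), and its binding partner LDB1, located elsewhere, at 38.4 and 38.2 (0.01). ZNF326, a splicing-linked zinc finger protein, was at 63.4 and 29.5 (1.08), and HFM1, a meiotic DNA helicase placed in this list, at 10.6 and 4.14 (1.18). DR1, a repressor that binds TBP, was at 145.7 and 72.0 (1.01), and its heterodimer partner DRAP1 had a log2 ratio of 0.27. The general factor GTF2B (TFIIB) was at 95.3 and 52.7 (0.84), whereas TBP was at -0.08. Of the 8 expressed genes of that partner list 0 passed 2-fold.

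MTF2, a Polycomb-like protein that brings the repressive complex PRC2 to CpG islands, was at 180.0 in the resistant and 102 in the parental library (0.82). Of the PRC2 core genes elsewhere, EZH2 stood at -0.41, EED at -0.37 and SUZ12 at -0.11, whereas the histone-binding subunits RBBP4 and RBBP7 stood at 0.33 and 1.49. Among the 10 listed PRC2 genes the median was -0.23, and JARID2, an accessory subunit, was lower (-1.24). The remaining members were ZNF644 (0.73) and the repressor GFI1 (0.75, at 13.9 and 7.83). FUBP1, which binds DNA and RNA and is known as an activator of MYC, was at 376 and 482 (-0.36). It lies near the start of the stretch, as does ZZZ3.

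Ribosome and RNA genes were led by RPL5, a protein of the large ribosomal subunit that with RPL11 and the 5S RNA can hold back MDM2. RPL5 had the highest length-corrected level of all members in both libraries, at 756 reads per kilobase of exon, scaled to equal library totals, in the resistant and 290 in the parental line. On the uncorrected scale it was at 4973 and 1940 (1.36, plain ratio 2.56, interval 2.55 to 2.58). Its pseudogenes are many and can share its reads, and on the opposite strand its exons overlap those of FAM69A, at 20.1 and 6.19 (1.56), whose reads cannot be told apart from those of RPL5 where strand was not kept.

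The other large-subunit proteins did not follow RPL5. Of 42 such genes elsewhere 1 was at least 2-fold higher and 0 lower, with a median of 0.11. RPL11 was at 1146 in the resistant and 930 in the parental library (0.30). DNTTIP2, a nucleolar ribosome assembly factor, was at 109.9 and 50.8 (1.10), RPAP2, a phosphatase of RNA polymerase II, at 29.3 and 17.0 (0.75) and RBMXL1, a retrocopy of the splicing factor gene RBMX, at 141 and 95.2 (0.56). RBMXL1 shares exons with CCBL2. Before SH3GLB1, RPF1 (-0.08) and ZNHIT6 (0.09), both factors of ribosome or small nucleolar RNA assembly, lay near 0.

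**Figure D3:**
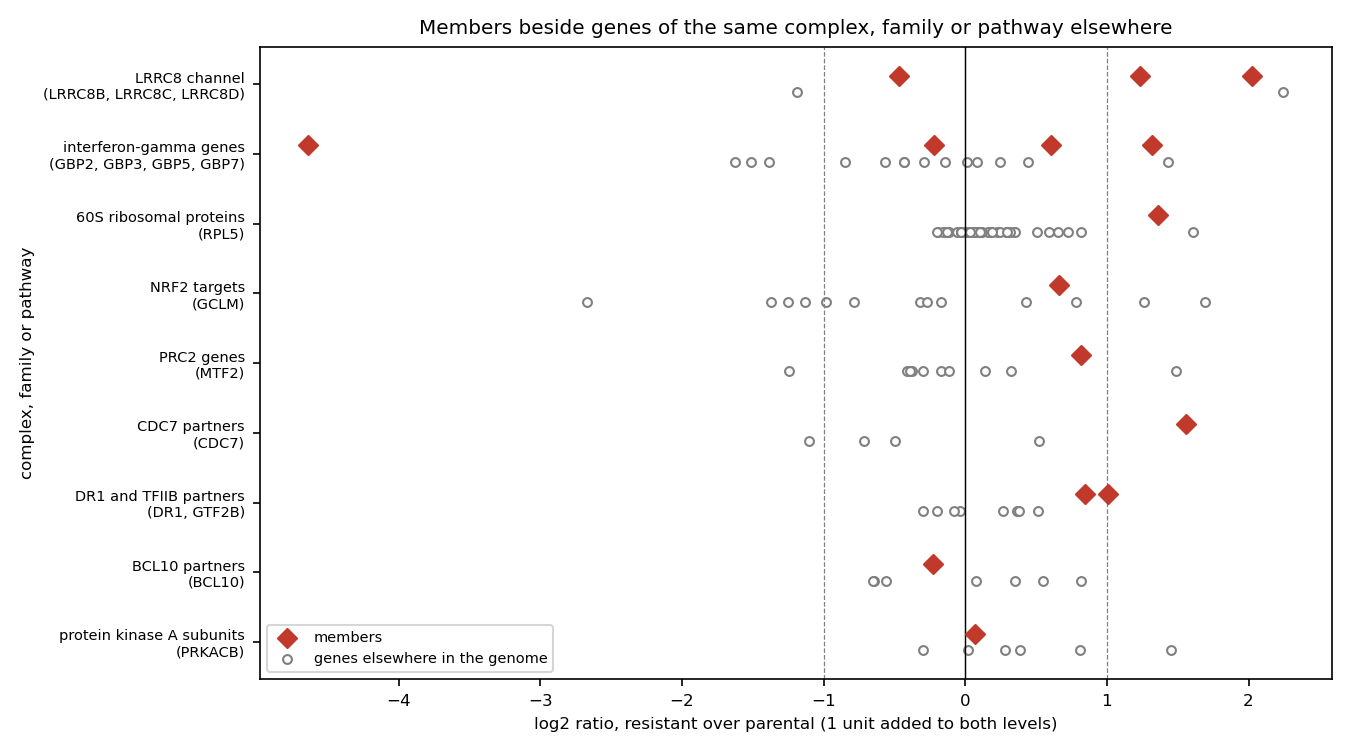
Log2 ratio of resistant over parental (x axis, 1 unit added to both levels) for members of the stretch (red diamonds) and for expressed genes of the same complex, family or pathway elsewhere in the genome (open grey circles), with 1 row per group (y axis). RPL5 (1.36), CDC7 (1.56) and MTF2 (0.82) lie to the right of most of their partners, GBP5 (-4.64) to the left, and dashed lines mark 2-fold.

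Among 7 expressed metabolic enzymes 2 were at least 2-fold higher and 0 lower, with a median of 0.49. AK5 rested on 582 resistant and 2 parental reads, so that its plain ratio of 302 had an interval of 83.3 to 2501. HS2ST1, which adds sulfate to heparan sulfate chains, was at 319 in the resistant and 154 in the parental library (1.05). GCLM, the modifier subunit of the enzyme that limits glutathione synthesis, was at 57.6 and 36.0 (0.66), while the catalytic subunit GCLC was at 28.0 and 31.7 (-0.17). GCLM is a target of NRF2, the regulator of antioxidant genes. Of 13 listed targets elsewhere 2 were at least 2-fold higher, or 15.4% against 10.6% of all expressed genes. Lower were 4, or 30.8% against 9.68%, and the median of the targets was -0.32. The quinone reductase NQO1 was the lowest of them, at 52.5 and 339 (-2.67).

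The remaining enzymes differed by less than 2-fold. CCBL2 (now KYAT3), a kynurenine aminotransferase, was at 76.1 in the resistant and 57.6 in the parental library (0.39), and EPHX4 at 8.55 and 5.82 (0.49). DDAH1, which breaks down inhibitors of nitric oxide synthase, was at 117 and 168 (-0.52), and the lysosomal chitobiase CTBS at 28.1 and 31.3 (-0.15).

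Cytoskeletal and centrosomal members went both ways. Of 6 expressed genes 2 were at least 2-fold higher and 0 lower, with a median of 0.10. NEXN, an actin-binding protein of muscle Z-discs, was at 119.5 in the resistant and 13.5 in the parental library (3.06), a plain ratio of 8.86 with an interval of 8.45 to 9.29. The antisense gene NEXN-AS1, at 3.62 and 0.672 (1.47), overlaps its exons on the opposite strand and cannot be told apart from it where strand was not kept. TTLL7, which adds glutamate chains to tubulin, was at 15.0 and 2.27 (2.29). ODF2L, a centriolar protein, was at 114 and 224 (-0.96), and SSX2IP, a protein of centrosome maturation, at 55.0 and 55.4 (-0.01) differed by less than the counting error and turned above 0 under each of the 3 other scalings. CCDC18 was at 0.21 and BTBD8 at -0.04, which turned above 0 with upper-quartile scaling.

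Of 5 folding, trafficking and mitochondrial members 2 were at least 2-fold higher and 1 lower. RP4-604K5.1, whose identifier is that of SELENOF, a selenoprotein of the endoplasmic reticulum, was at 559.6 in the resistant and 219 in the parental library (1.35), and its length-corrected levels of 144 and 55.3 were the second highest after RPL5. TMED5, a cargo receptor of the early secretory pathway, was at 463 and 337 (0.46), and FAM73A (now MIGA1), which promotes fusion of mitochondria, at 49.6 and 48.3 (0.04). DNAJB4, an HSP40 co-chaperone, was at 5.41 and 14.8 (-1.30). Its plain ratio was 0.365 with an interval of 0.335 to 0.397, and its exons overlap those of GIPC2, which had 3 and 6 reads. The heat-shock paralogue DNAJB1 was lower as well, at 46.8 and 162 (-1.77), and DNAJB6 had a log2 ratio of 0.16. The remaining expressed members were C1orf52 (-0.67) and SAMD13 (-0.15).

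**Figure D4:**
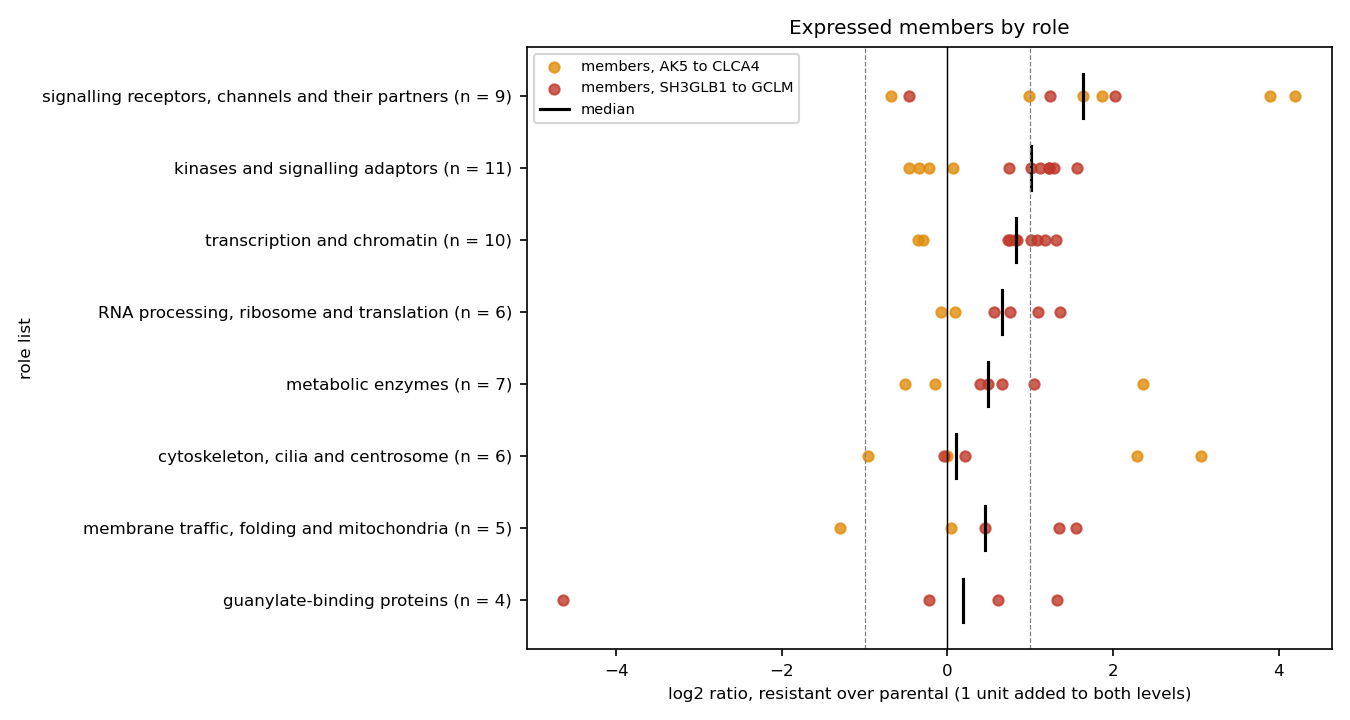
Log2 ratio of resistant over parental (x axis, 1 unit added to both levels) of expressed members in 8 role lists (y axis, with the number of genes), coloured by stretch, with the median of each list as a black bar and dashed lines at 2-fold. In the kinase, transcription and RNA lists every member from SH3GLB1 on (red) lies to the right of every member before it (orange), while the 2 highest receptors, PTGFR (4.20) and LPHN2 (3.89), lie before it. The dividing point was placed after the values were seen and the rule used these ratios, so nothing is read from this order.

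Before SH3GLB1, the 8 members that were at least 2-fold higher had resistant levels of 3.62 to 119.5 and parental levels of 0.0140 to 13.5. The other 18 expressed members there had resistant levels of 1.15 to 376 and parental levels of 1.38 to 482. Low parental levels thus occurred among both, but high ones did not. At least 2-fold higher were 8 of 13 expressed members with a parental level under 20, and 0 of 13 at 20 or more. Outside the stretch, 19.4% of expressed genes with a parental level under 20 were at least 2-fold higher, against 4.73% of those at 20 or more. The parental level enters the ratio, so the members were also divided by the mean of both libraries. That mean holds both terms of the ratio, so it does not remove the dependence. With a mean level of at least 20, 15 members from AK5 to CLCA4 had a median log2 ratio of -0.15 and 2 of them were at least 2-fold higher, namely NEXN and LPHN2. The 27 such members from SH3GLB1 to GCLM had a median of 1.01, with 15 at least 2-fold higher, 0 lower and 25 above 0. GBP5 (-4.64) fell under that mean level and is not among them. By a parental level of at least 20, 26 members from SH3GLB1 to GCLM had 14 higher, 1 lower and 23 above 0. The rule used these ratios, so nothing is read from either division. The plain ratio lay between 1.5 and 3 for 24 of the 35 expressed members from SH3GLB1 to GCLM (68.6%), for 1 of the 26 before it, and for 12.6% of the 13655 expressed genes outside the stretch that had parental reads. That window was not planned beforehand, and the rule used these ratios, so nothing is read from these shares. In the rows from SH3GLB1 on, GBP2, GBP5, LRRC8B and BTBD8 were the expressed members with a ratio below 0.

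In all, the 75 members took 0.682% of gene reads in the resistant and 0.375% in the parental library. RPL5 gave 684422 of the 1661811 resistant and 277107 of the 963339 parental reads among them. Of the expressed members 4 had counting intervals that included a ratio of 1, namely FAM73A, SAMD13, SSX2IP and BTBD8. The 14 members below the minimum had levels of at most 0.879 in the resistant and 0.413 in the parental library. C1orf180, CLCA1, CLCA4, BARHL2 and C1orf146 had 0 reads in both. GIPC2, ELTD1 (the endothelial receptor ADGRL4), TTLL7-IT1 and DNASE2B had at most 6 reads in either library. WDR63 had 121 resistant and 21 parental reads, COL24A1 4 and 59, CLCA2 0 and 14, GBP4 18 and 57 and GBP6 7 and 23. By GENCODE 29, 34 members lie on the plus and 41 on the minus strand, and 72 are protein-coding. KIAA1107 stands between members in the table but had no position in that release and was not counted. It was at 22.3 in the resistant and 20.2 in the parental library (0.13).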

How the data were processed

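RNA from 1 resistant and 1 parental culture was sequenced. The reads were aligned with TopHat, per the submitters' processing notes. No source used here states which version, genome build, counting tool or strand setting was used. The deposited values are log2 values whose table name says RPKM. Back-transformed, they were whole multiples of 1 step per library, 0.00727 for the resistant and 0.00700 for the parental one, so they are reads times 1 factor, not divided by length. Of genes with 1 to 100000 reads, 17049 and 17090, 100% came out whole within 0.1 read. The 3573 and 3504 genes at the lowest value (0.9 reads) were set to 0. With 1 library per group no test was run.

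Gene order came from GENCODE 29, which gave 97.8% of expressed genes a position. Ratios, medians and counts were computed with Python 3.11.15, numpy 2.4.6, pandas 2.3.3 and scipy 1.17.1 and tested on simulated data. Across 44 expressed members with 1000 or more reads in each library, the widest counting interval reached 7.75% to either side. Every expressed member may be named. Named genes outside the stretch are its nearest neighbours, listed partners past 2-fold and direct partners of members. CNN3, F3, some partners and paralogues under 2-fold and the dividing point at SH3GLB1 were picked with their values already known. The members and lists were chosen with earlier results of these data known. Alternatives were other pseudocounts, minimum levels, scalings, member sets and numbers of neighbours. A few genes of the marker and partner lists are not reported here by name.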

Additional observations from a re-analysis of the deposited data

How the results depend on the processing

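No paired analysis was possible because each group holds 1 library. The count of members at least 2-fold higher, 26, ranged from 19 with a pseudocount of 5 to 30 with the 8 left-out genes put back. The count of lower members, 2, was 3 with those genes put back, 1 with a pseudocount of 5 and 1 without members whose exons overlap another gene, since DNAJB4 dropped out. With a pseudocount of 5 the median of the members was 0.61, that from SH3GLB1 to GCLM 0.80, that after ARHGAP29 -0.56 and the gap between members and neighbours 1.12 (1.31 as reported). With a pseudocount of 0.1 the last 2 were -0.75 and 1.41. Without a minimum level the members' median was 0.49, that from SH3GLB1 to GCLM 0.82, those before AK5 and after ARHGAP29 -0.14 and -0.45 and the gap 0.71, because genes with few or no reads enter near 0. With a minimum of 5 the median from AK5 to CLCA4 was -0.11. Scaling by the upper quartile gave 0.022 for AK5 to CLCA4, which turns its sign, 1.07 for SH3GLB1 to GCLM and -0.30 before AK5. The median from SH3GLB1 to GCLM was 1.03 when scaled by totals and 1.04 when centred on all expressed genes. It was 0.92 without the first and last 5 members, 0.92 with KIAA1107 put in and 1.05 without overlapping genes, the last 2 chosen after seeing the data. With 10 neighbours a side the medians were -0.21 and -0.45 and the gap 1.11. The 3 scalings shifted the overall log2 scale by 0.02 to 0.07. They put MCOLN2 past 2-fold and turned SSX2IP, and the upper quartile also BTBD8, above 0. A pseudocount of 5 put AK5, NEXN-AS1, LPAR3, PKN2, ZNF326, HFM1 and DR1 below 2-fold, beside DNAJB4. Spread between cultures is unknown, and the depth limits only members with few reads.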
